A study of Mus musculus with 12 samples.

Results

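Tagap, Tgm2 and Dntt are 3 genes that were selected on their response to 10-carboxymethyl-9-acridanone (CMA) in T cells without functional STING. They are 3 of the 38924 gene IDs counted, and all 3 were among the 13811 genes with enough reads to be tested. Because the response in STING-deficient cells chose them, that response is described below without a test, as is everything that contains it, and the test is kept for wild-type (WT) cells.

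The 12 RNA-sequencing libraries, 3 per group, came from T cells of C57BL/6 mice, labelled as CD4+ cells from spleen. The 4 groups were WT with DMSO, WT with CMA, STINGgt/gt with DMSO and STINGgt/gt with CMA, where STINGgt/gt (Goldenticket, labelled STING KO) is a germline missense mutation of the STING gene present in every cell of the animal. Per the methods, mice were 8 to 12 weeks old and of 1 gender, and sorted naïve cells were activated through CD3 and CD28 for 2 days, left without antibody for 1 day, and then given CMA or its solvent DMSO, for 16 h according to the deposited design. The paper calls the 3 libraries of a group biological replicates, and the sources used here do not say whether each came from its own animal, so the p-values measure the spread between these libraries.

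STING is an adaptor of the endoplasmic reticulum that senses cyclic dinucleotides and signals through TBK1 to the transcription factors IRF-3 and NF-κB, and CMA is a small molecule that binds and activates the mouse protein. Tagap encodes a GTPase-activating protein and is known as a gene induced when T cells are activated. Tgm2 encodes transglutaminase 2, a calcium-dependent enzyme that cross-links glutamine and lysine residues of proteins and also binds GTP, and Dntt encodes terminal deoxynucleotidyl transferase, which adds nucleotides without a template to the V(D)J joints of antigen receptor genes and is typical of immature lymphocytes.

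In the deposited annotation of GRCm38, Tagap (ENSMUSG00000033450) occupies chr17:7926000-7934897 on the plus strand and has 3.08 kb of exons. Tgm2 (ENSMUSG00000037820) lies at chr2:158116402-158146436 on the minus strand with 4.608 kb of exons, and Dntt (ENSMUSG00000025014) at chr19:41029275-41059523 on the plus strand with 2.292 kb. The counted reads are those on exons. Exons of Tagap overlap those of the antisense gene E430024P14Rik, exons of Tgm2 overlap those of Rprd1b and Gm20412 on the other strand, and no gene overlaps Dntt. Tagap also has a close copy, Tagap1 (ENSMUSG00000052031), at chr17:6954965-6961156 on the minus strand.

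The promoters are shown because the genes were selected on 1 response although they lie on 3 chromosomes, and that of Tagap1 because the copy is compared with Tagap below. RefSeq's promoter table (GRCm38.p6), which gives 250 bases before to 50 bases after each start, held 2 of the 3 genes and Tagap1. In the sequences, written 5′ to 3′ along the gene, capitals mark the E box CANNTG, bound by basic helix-loop-helix factors, and the NFAT core GGAAA in either direction (TTTCC on the other strand), which overlap by 1 base in Tagap.
Tagap, chr17:7925750-7926049, plus strand: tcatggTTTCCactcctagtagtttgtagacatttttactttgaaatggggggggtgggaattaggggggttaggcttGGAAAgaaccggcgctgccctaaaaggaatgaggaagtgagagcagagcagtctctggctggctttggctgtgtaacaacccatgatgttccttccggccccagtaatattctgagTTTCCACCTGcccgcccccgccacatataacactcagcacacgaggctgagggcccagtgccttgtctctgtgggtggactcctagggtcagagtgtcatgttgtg
Dntt, chr19:41029025-41029324, plus strand: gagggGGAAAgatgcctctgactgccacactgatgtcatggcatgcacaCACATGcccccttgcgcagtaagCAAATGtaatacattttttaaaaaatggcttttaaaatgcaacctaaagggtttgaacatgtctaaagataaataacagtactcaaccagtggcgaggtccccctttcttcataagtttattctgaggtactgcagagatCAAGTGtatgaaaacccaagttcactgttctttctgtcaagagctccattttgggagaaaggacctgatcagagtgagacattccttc
Tagap1, chr17:6961107-6961406, minus strand: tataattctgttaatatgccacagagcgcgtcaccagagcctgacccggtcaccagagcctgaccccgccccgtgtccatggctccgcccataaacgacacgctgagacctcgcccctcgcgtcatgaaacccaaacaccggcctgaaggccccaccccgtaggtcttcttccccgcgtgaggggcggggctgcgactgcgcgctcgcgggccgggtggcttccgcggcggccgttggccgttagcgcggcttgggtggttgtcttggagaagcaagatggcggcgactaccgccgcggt
The Tagap promoter held 3 NFAT cores and 1 E box and the Dntt promoter 1 NFAT core and 3 E boxes, whereas that of Tagap1 held none of these letters. Among all 32851 promoters of that length, 61.3% held GGAAA and 72.3% held CANNTG on either strand, so both are common. Neither the interferon-stimulated response element, searched as GAAA, any 2 bases and GAAA (in 3.44% of promoters), nor the GAS element TTCNNNGAA (8.30%), nor the κB site, searched as GGGA, any base and TTTCC (0.411%), was found on either strand of any of the 3. The aryl hydrocarbon receptor core GCGTG (32.4% of promoters) occurred 2 times in Tagap1 and not in Tagap or Dntt. The Tagap1 promoter was rich in CpG, with 34 CpG and a GC content of 66.3%, against 6 and 53% for Tagap, 2 and 42.3% for Dntt, and medians of 7 and 52.7% over all promoters.

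Each library had between 27414450 and 43784910 reads on genes. The share of all entries assigned to no counted feature was 4.86% to 5.47% in WT with DMSO and 6.79% to 7.16% in WT with CMA, against 5.98% to 6.54% and 6.02% to 6.33% in STINGgt/gt. The share not aligned uniquely was 29.6% to 30.3% and 27.8% to 27.9% in WT, against 28.1% to 29.0% and 28.1% to 28.3% in STINGgt/gt. Both shares thus separated the WT groups and overlapped between the STINGgt/gt groups, and their part in the WT changes given below was not tested. Levels are given as CPM, counts scaled to library size (reads per 1e6) with the TMM method. The T cell markers (7 genes, among them Cd3e and Cd4) summed to 2866 to 2918 CPM in WT with DMSO, 2634 to 2641 in WT with CMA, 2950 to 2992 in STINGgt/gt with DMSO and 2983 to 3054 in STINGgt/gt with CMA, and in WT 4 of them were lower with CMA, 1 (Cd4) higher and 2 did not pass. B cell markers (6 genes) were also present, at 632 to 696 CPM in WT with DMSO and 716 to 799 in WT with CMA. In STINGgt/gt they stood at 289 to 298 CPM with DMSO and 307 to 318 with CMA. In WT 4 of the 6 were higher with CMA and 2 did not pass. Beside these and the marker counts below, 33% of all genes tested were higher with CMA in WT and 37.4% lower (edgeR adjusted p under 0.05). In bulk samples such as these, fewer cells of a type and less RNA per cell cannot be told apart. The paper reports apoptosis after overnight CMA in WT T cells and not in STINGgt/gt T cells. Its part in the levels given here was not tested.

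Tagap, the RhoGAP gene of T cell activation, rose with CMA in WT T cells by 3.25-fold, and was higher by 1.38-fold in STINGgt/gt T cells. In WT the 3 libraries with DMSO stood at 122, 120 and 115 CPM and the 3 with CMA at 395, 391 and 375 CPM. In STINGgt/gt they stood at 173, 171 and 169 CPM with DMSO and at 232, 242 and 235 CPM with CMA. No library with CMA overlapped the DMSO libraries of its genotype, a separation in the higher direction that 33.5% of the genes tested had in WT and 11.8% in STINGgt/gt. The groups ran from WT with DMSO, the lowest, through STINGgt/gt with DMSO and STINGgt/gt with CMA to WT with CMA, with no overlap between neighbours in that order.

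The group means of Tagap in WT were 119 ± 3.47 CPM with DMSO and 387 ± 10.5 CPM with CMA (SD, n = 3). That is a log2 change of 1.70 (SE 0.041, adjusted p = 2.90e-15, edgeR quasi-likelihood test, Benjamini-Hochberg over all genes tested). As the STINGgt/gt libraries share in this model's estimate of the spread, the 6 WT libraries were also fitted alone, which gave 1.73 (SE 0.049, edgeR adjusted p = 2.09e-09). In STINGgt/gt the means were 171 ± 1.85 and 236 ± 5.28 CPM (SD, n = 3), which is a log2 change of 0.47. The direction was thus the same in both genotypes, and the size in STINGgt/gt was 27.4% of that in WT on the log2 scale, with a difference of 1.23. The starting levels differed too. With DMSO Tagap was lower in WT than in STINGgt/gt by 0.52 on the log2 scale (all 3 libraries below all 3), and with CMA it was higher in WT by 0.71.

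**Figure D1:**
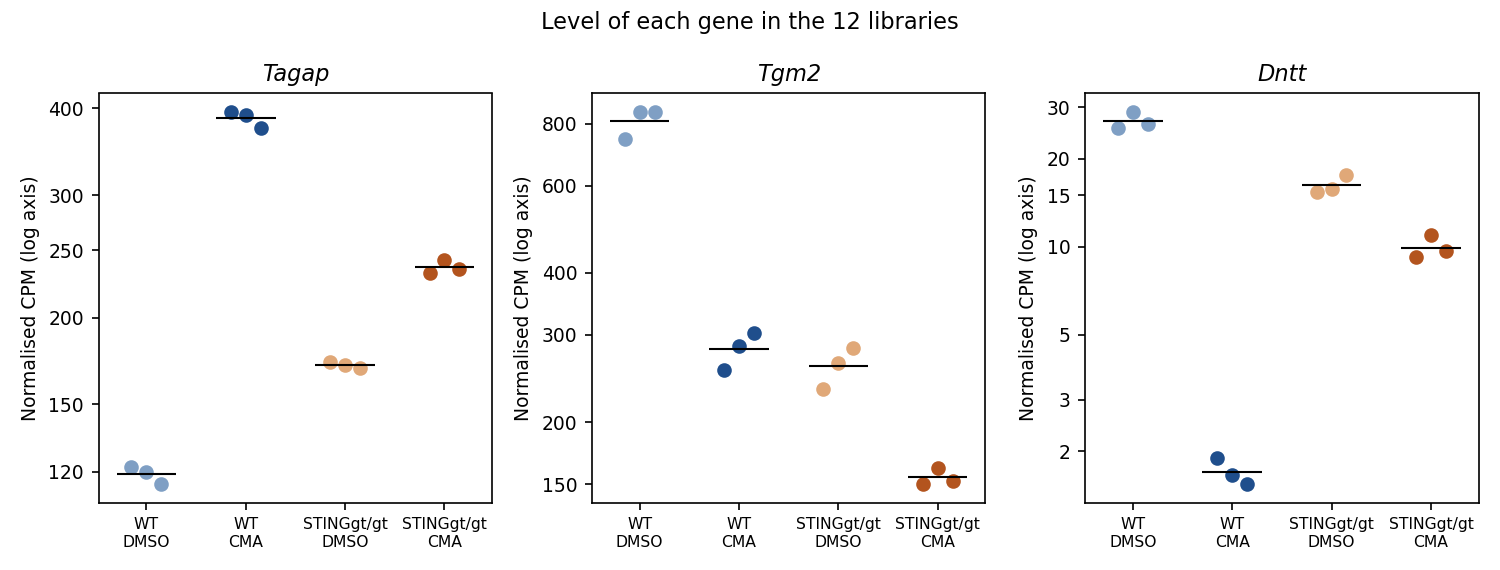
Normalised CPM (log axis, a separate range in each panel) of Tagap, Tgm2 and Dntt in the 4 groups; each point is 1 of 12 libraries and each bar the mean of 3. The libraries with CMA lie above those with DMSO for Tagap and below them for Tgm2 and Dntt in both genotypes, and Tgm2 in WT with CMA (255 to 302 CPM) overlapped STINGgt/gt with DMSO (233 to 282 CPM).

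Tgm2, the cross-linking enzyme, fell with CMA in WT to 34.6% of its level with DMSO, and stood at 59.6% in STINGgt/gt. In WT the libraries read 746, 842 and 844 CPM with DMSO and 255, 285 and 302 CPM with CMA. In STINGgt/gt they read 233, 264 and 282 CPM with DMSO and 150, 162 and 152 CPM with CMA. The treated and untreated groups did not overlap in either genotype, as for 37.6% (WT) and 11.3% (STINGgt/gt) of genes in the lower direction, but STINGgt/gt T cells without CMA overlapped WT T cells with it.

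The means of Tgm2 in WT were 811 ± 56.2 CPM with DMSO and 281 ± 24.0 CPM with CMA (SD, n = 3), which is a log2 change of -1.53 (SE 0.074, edgeR adjusted p = 1.53e-11). The fit of the WT libraries alone gave -1.51 (edgeR adjusted p = 8.11e-08). In STINGgt/gt the means were 260 ± 24.7 and 155 ± 6.23 CPM (SD, n = 3), which is a log2 change of -0.75. That was 48.8% of the WT effect on the log2 scale, the largest share of the 3 genes, and the difference between the effects was -0.78. The genotypes differed at both conditions, with Tgm2 higher in WT by 1.64 on the log2 scale with DMSO and by 0.86 with CMA. B cell markers were higher in WT as well, as given above, and myeloid markers (7 genes) summed to 21.7 to 24.4 CPM in WT with DMSO, 17.3 to 18.1 in WT with CMA, 7.91 to 9.56 in STINGgt/gt with DMSO and 7.15 to 8.39 in STINGgt/gt with CMA. In WT 3 of the 6 tested myeloid markers were lower with CMA and 3 did not pass, and the part of these cells in the level of Tgm2 was not tested. Among the endothelial markers (4 genes), a cell type known for abundant transglutaminase 2, Cdh5 had at most 3 reads and Tek at most 1 read in any library. Nearly all of that list's sum was Pecam1, which fell in WT from 50.1 ± 0.484 to 28.7 ± 3.10 CPM (SD, n = 3), while Kdr, the other marker tested, rose from 0.626 ± 0.126 to 0.979 ± 0.0995 CPM (SD, n = 3). The sum was 50.1 to 51.1 CPM in WT with DMSO, 27.3 to 33.3 in WT with CMA, 44.2 to 46.3 in STINGgt/gt with DMSO and 44.2 to 48.9 in STINGgt/gt with CMA.

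Dntt, the template-independent polymerase, fell furthest of the 3 in WT, to 6.37% of its level with DMSO, and stood at 61.3% in STINGgt/gt. In WT the libraries read 25.5, 28.9 and 26.2 CPM with DMSO and 1.90, 1.67 and 1.54 CPM with CMA. In STINGgt/gt they read 15.4, 15.8 and 17.6 CPM with DMSO and 9.21, 10.9 and 9.67 CPM with CMA. All 4 groups were separate, from WT with DMSO, the highest, through STINGgt/gt with DMSO and STINGgt/gt with CMA down to WT with CMA. The lowest values rest on 68, 54 and 49 reads, with exact 95% Poisson intervals of 52.8 to 86.2, 40.6 to 70.5 and 36.3 to 64.8 reads, which cover counting error only.

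The means of Dntt in WT were 26.9 ± 1.77 CPM with DMSO and 1.70 ± 0.179 CPM with CMA (SD, n = 3), which is a log2 change of -3.97 (SE 0.106, edgeR adjusted p = 9.60e-15). The WT libraries alone gave -3.95 (edgeR adjusted p = 1.11e-09). In STINGgt/gt the means were 16.3 ± 1.2 and 9.94 ± 0.90 CPM (SD, n = 3), which is a log2 change of -0.71. That was 17.8% of the WT effect, the smallest share of the 3 genes, and the effects differed by -3.27. Dntt was higher in WT by 0.72 on the log2 scale with DMSO, and lower in WT by 2.55 with CMA (log2 difference -2.55). Of the CD8 and NK cell markers, 4 of 6 were lower with CMA in WT and 2 (Cd8b1 and Klrk1) did not pass. Their sum was 121 to 138 CPM with DMSO and 62.1 to 65.8 CPM with CMA in WT, most of the change lying in Nkg7 (69.6 ± 6.14 to 20.4 ± 1.79 CPM, SD, n = 3), against 58.2 to 60.4 and 60.4 to 64.4 CPM in STINGgt/gt, and their part in the level of Dntt was not tested. In STINGgt/gt none of the 27 tested genes of the 5 marker lists passed the threshold with CMA in edgeR, DESeq2 or limma-voom. In edgeR 3 of them had an unadjusted p under 0.05. Over all genes tested there, 0.398% passed upward and 0.92% downward, so a list without calls is near the background and nothing is read from it.

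Per kilobase of exon, which allows genes to be compared, the order of levels with DMSO in WT was Tgm2 (176 CPM per kb), Tagap (38.7) and Dntt (11.7). With CMA in WT, Tagap (126 CPM per kb) passed Tgm2 (60.9) and Dntt dropped to 0.743. In STINGgt/gt, Tgm2 (56.4 ± 5.36 CPM per kb, SD, n = 3) and Tagap (55.5 ± 0.60) differed with DMSO by less than the spread of Tgm2, and Tagap (76.7) exceeded Tgm2 (33.6) with CMA, with Dntt at 7.10 and 4.34. The order of Tagap and Tgm2 after CMA was therefore the same in both genotypes, although with reads shared between Tagap and Tagap1 left out of the counts, the level of Tagap is a minimum.

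The background of these calls differed between the genotypes. In WT, 33% of the genes tested passed an adjusted p of 0.05 upward and 37.4% downward with CMA, so that the passing of 3 of 3 genes (1 higher, 2 lower) is near what most genes did. In STINGgt/gt, 0.398% of genes passed upward and 0.92% downward. The 3 genes are among those by the way they were chosen, and nothing is read from it. By size of change, Dntt ranked 28 of 13811 from the lowest in WT (the lowest 0.203%), Tgm2 476 from the lowest and Tagap 629 from the highest.

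**Figure D2:**
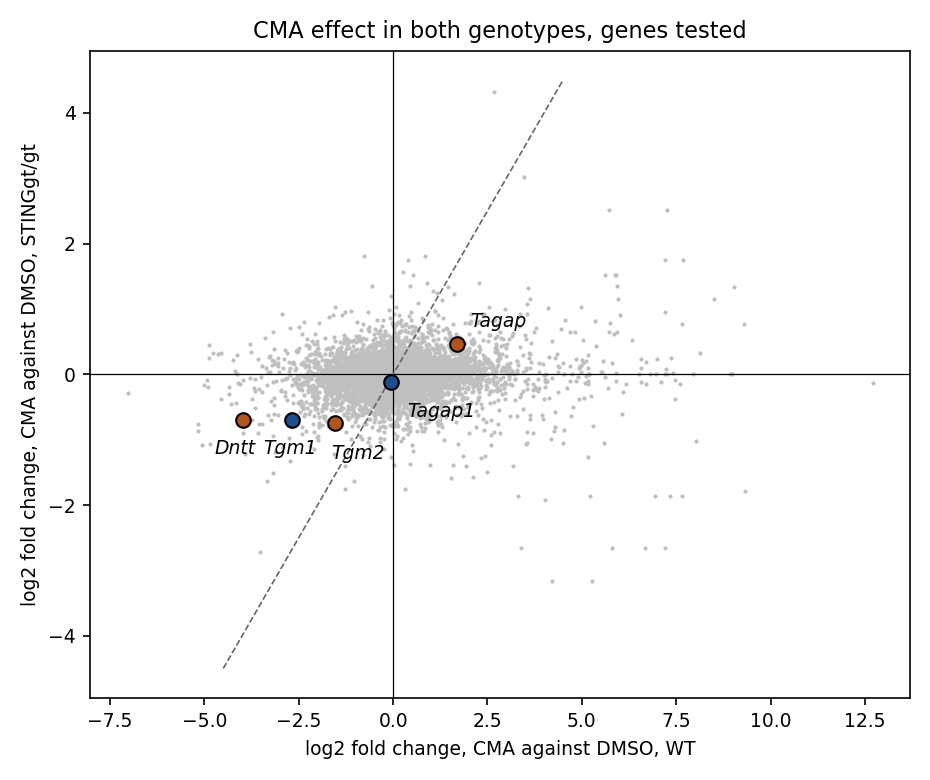
Log2 fold change of CMA against DMSO in WT (x axis) and in STINGgt/gt (y axis) for the 13811 genes tested; orange points are the 3 selected genes, blue points Tagap1 and Tgm1, and the dashed line marks equal change. The selected genes lie between the x axis and the dashed line, with STINGgt/gt values of 0.47, -0.75 and -0.71 against 1.70, -1.53 and -3.97 in WT.

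Tagap1, the copy of Tagap, was examined because 47.6% of the 50-base words of Tagap exons also occur in Tagap1. Reads that align to more than 1 place were not counted (27.8% to 30.3% of entries), so part of the reads of both genes is lost. Tagap1 stood at 18.5 ± 1.24 and 17.6 ± 1.06 CPM in WT with DMSO and CMA, and at 24.4 ± 2.02 and 22.6 ± 0.274 CPM in STINGgt/gt (SD, n = 3). It passed the threshold in neither genotype, with log2 fold changes of -0.06 in WT (edgeR adjusted p = 0.465) and -0.11 in STINGgt/gt (edgeR adjusted p = 0.516). The change was thus seen in the Tagap counts and not in those of its copy. Per library, there were 6.13 to 6.72 reads on Tagap for each on Tagap1 in WT with DMSO and 21.0 to 23.2 with CMA. In STINGgt/gt this ratio was 6.46 to 7.70 with DMSO and 10.2 to 10.7 with CMA. When the reads of both genes were summed, which removes any exchange between them, the log2 change was 1.56 in WT and 0.40 in STINGgt/gt. Tagap1 was lower in WT than in STINGgt/gt with DMSO, by 0.40 on the log2 scale (log2 difference -0.40), as Tagap was.

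**Figure D3:**
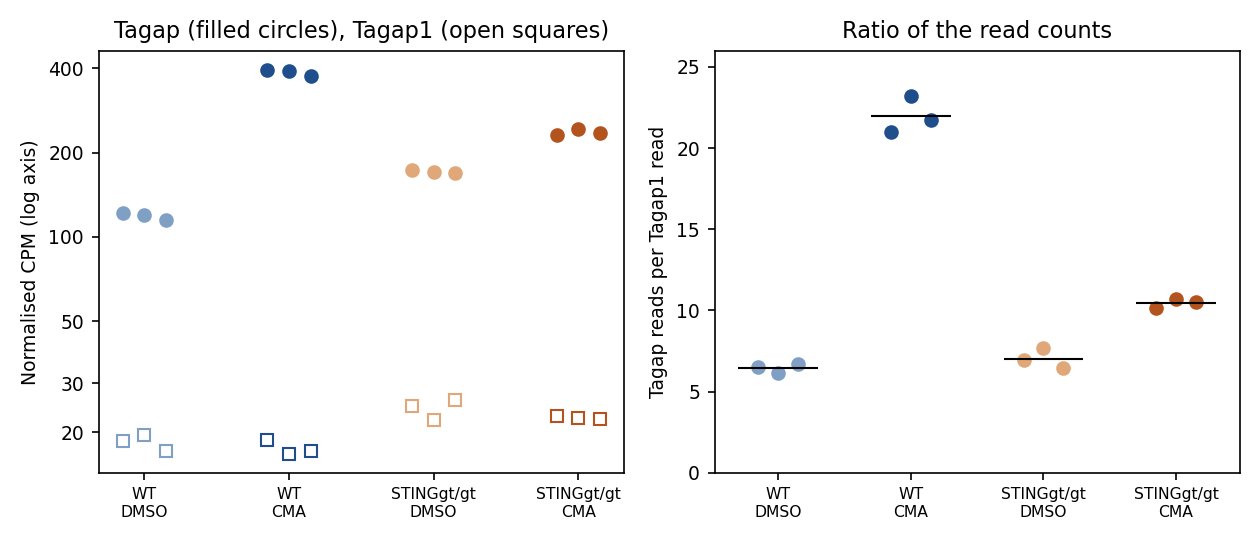
Left, normalised CPM (log axis) of Tagap and Tagap1 in the 12 libraries; right, reads on Tagap per read on Tagap1, with a bar at the mean of each group. Tagap1 lies between 16.8 and 26.2 CPM throughout, and the ratio is at most 6.72 with DMSO and at least 21.0 with CMA in WT, and at most 7.70 and at least 10.2 in STINGgt/gt.

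Other genes of the pathways were read from 8 lists, for which 33% higher and 37.4% lower is the WT background and the median log2 fold change over all genes was -0.04. Around Tagap, 42 of 46 genes with a RhoGAP domain were tested, and in WT 17 were higher, 17 lower and 8 did not pass (median log2 fold change 0.03). Dlc1, a RhoGAP known as a tumour suppressor, rose by 3.06 on the log2 scale but from a low level of 0.548 ± 0.0121 to 4.60 ± 0.596 CPM (SD, n = 3), and Arhgap22, which acts on Rac1, rose by 3.84 from at most 4 reads per library. Srgap3, a RhoGAP known from neurons, fell from 73.4 ± 4.93 to 21.4 ± 1.42 CPM (SD, n = 3; log2 change -1.78), and Chn1, which encodes a Rac GAP, fell by 1.81 on the log2 scale with at most 24 reads per library. In STINGgt/gt 1 of the 42 genes passed, Srgap3, with a log2 fold change of -0.32 (edgeR adjusted p = 0.0361).

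The 12 T cell activation genes, the group to which Tagap belongs by its name, were split in WT into 4 higher, 5 lower and 3 that did not pass (median 0.03). Cd69, an early surface marker of activation, rose from 105 ± 8.52 to 214 ± 6.44 CPM (SD, n = 3), and Cd44, an adhesion receptor of activated cells, rose by 0.75 on the log2 scale. Egr2, an early growth response factor induced by the T cell receptor, fell from 53.9 ± 1.55 to 11.5 ± 0.892 CPM (SD, n = 3), and Egr1 fell by 1.37 on the log2 scale. Tagap therefore moved with Cd69 and Cd44 and against Egr1 and Egr2 in WT. In STINGgt/gt 2 of the 12 genes passed by edgeR, both upward like Tagap, against 0.398% of all genes in that direction, while DESeq2 called 4 of the 12 and limma-voom 3 in either direction. These were Egr2 (log2 fold change 0.40, adjusted p = 0.00271, edgeR) and Nr4a1, an orphan nuclear receptor induced by the T cell receptor (0.24, adjusted p = 0.0242, edgeR).

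Around Tgm2, 2 of 9 other genes of the transglutaminase family were tested, and both were lower in WT. Tgm1, the transglutaminase known from the skin barrier, fell from 41.8 ± 2.22 to 6.55 ± 0.414 CPM (SD, n = 3), which is a log2 change of -2.67 (edgeR adjusted p = 2.15e-13). In STINGgt/gt Tgm1 went from 11.0 ± 1.22 to 6.82 ± 0.849 CPM (SD, n = 3) and its log2 fold change was -0.70 (edgeR, adjusted p = 0.00183). Tgm1 shared with Tgm2 the highest level in WT with DMSO and a lower level with CMA in both genotypes, and the difference between its effects was -1.97 (edgeR adjusted p = 3.41e-09). F13a1, the coagulation factor XIII chain, fell in WT from 1.13 ± 0.138 to 0.431 ± 0.0548 CPM (SD, n = 3).

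Of 12 genes for partners of transglutaminase 2, 11 were tested, and 6 were higher, 2 lower and 3 did not pass in WT (median 0.37). Sdc4, a heparan sulfate proteoglycan, rose by 1.19 on the log2 scale and Lrp1, an endocytic receptor, by 1.18, whereas Plcd1, a phospholipase (-1.99), and Lrp5 (-0.75), a Wnt co-receptor, fell with Tgm2. Sdc4 was the 1 partner to pass in STINGgt/gt, downward, at -0.23 (edgeR adjusted p = 0.0176). Of the 17 genes of the retinoid pathway, known for inducing Tgm2, 8 were tested and 1 was higher, 4 lower and 3 did not pass in WT (median -0.23). Stra6, the retinol transporter (-2.19), Crabp2, a retinoic acid binding protein (-1.49), and Rdh10, a retinol dehydrogenase (-0.30), fell and Rxrb, a retinoid X receptor, rose by 0.16 on the log2 scale, a call that was lost with library-size scaling.

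Around Dntt, 15 of 17 genes of V(D)J recombination and end joining were tested. In WT 3 were higher, 6 lower and 6 did not pass (median -0.09). Xrcc6 and Xrcc5, the chains of Ku, fell by 1.04 and 0.58 on the log2 scale, while the kinase gene Atm rose from 98.0 ± 24.4 to 414 ± 26.7 CPM (SD, n = 3) and Dclre1c (Artemis) by 0.54. Rag1 and Rag2, which encode the recombinase that works beside Dntt in immature lymphocytes, were not tested, with at most 4 reads of Rag1 in a library and no read of Rag2, for which a count of 0 allows up to 3 reads per library (the one-sided 95% limit, for counting error only).

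Of 12 genes of immature lymphocytes, 8 were tested, and 3 were higher, 1 lower and 4 did not pass in WT (median 0.15). The factors Tcf7, Satb1 and Lef1 rose by 1.03, 0.44 and 0.32 on the log2 scale, and Vpreb3 fell by 0.92. Most of the list thus did not follow Dntt. The 3 genes for factors known to bind the Dntt promoter all passed in WT. Ikzf1 (-0.43) and Ets1 (-0.39) fell and Elf1 rose by 0.33 on the log2 scale. In STINGgt/gt no gene of the retinoid, V(D)J, immature lymphocyte or promoter factor lists passed edgeR's test (0 of 34, of which 6 had an unadjusted p under 0.05). DESeq2 and limma-voom also called 0. That is near the background there, with 0.398% of all genes tested passing upward and 0.92% downward.

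**Figure D4:**
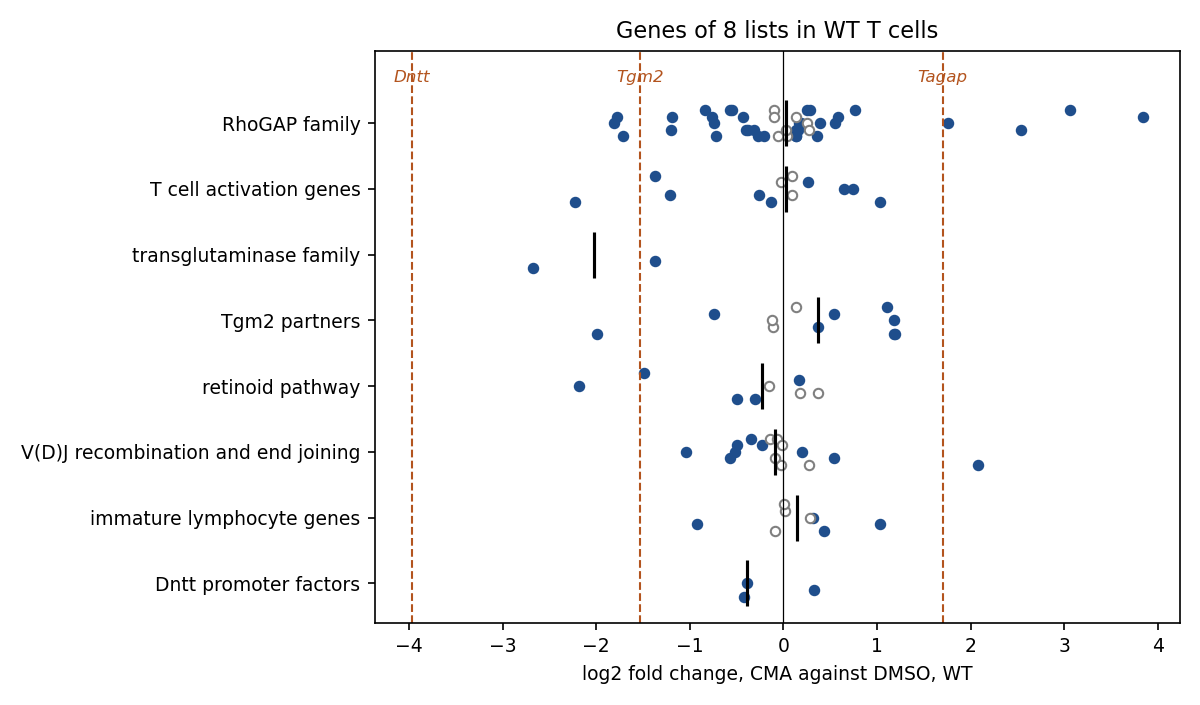
Log2 fold change of CMA against DMSO in WT for the tested genes of the 8 lists, with filled points past an adjusted p of 0.05, open points not past it, and a black bar at the median of each list. Dashed lines mark Dntt (-3.97), Tgm2 (-1.53) and Tagap (1.70); Arhgap22 (3.84) exceeds Tagap, and Tgm1 (-2.67) exceeds Tgm2 in size.

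The genes whose log2 CPM followed each gene most closely over the 12 libraries were sought among 11565 genes with a mean of at least 1 CPM. These correlations describe 12 libraries that share the 4 groups, and likeness over groups need not hold within them. They include the STINGgt/gt libraries that chose the 3 genes. Shared directions in STINGgt/gt thus follow in part from the choice and from the search itself. For Tagap they were Il2 (Pearson's r = 0.993), the T cell growth factor, Slfn2 (0.990) and Gbp2 (0.989), an interferon-inducible GTPase, which were higher with CMA by 2.63, 1.52 and 1.46 on the log2 scale in WT and by 0.82, 0.41 and 0.28 in STINGgt/gt. For Tgm2 they were Tgfb3 (0.990), a cytokine, Sema4d (0.988), a semaphorin, and Ptpn22 (0.987), a phosphatase of T cell receptor signalling. In WT they had log2 fold changes of -2.10, -0.37 and -0.39, against -0.88, -0.12 and -0.12 without functional STING. For Dntt they were Reep1, Armcx4 and Me2 (each 0.995), the last a mitochondrial malic enzyme, with log2 fold changes of -1.41, -3.16 and -1.40 in WT against -0.20, -0.36 and -0.19 without functional STING. Likeness did not require an effect of equal size, as Sema4d and Ptpn22 follow Tgm2 at a fraction of its change. Among the 3 selected genes, Tagap and Dntt mirrored each other (r = -0.966), while Tgm2 related less closely to Tagap (-0.624) and to Dntt (0.418), with its separate level in WT with DMSO. As the choice required a response in STINGgt/gt, these 3 values are a description only.

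The neighbours on the chromosome, 2 tested genes on each side, moved less in WT than the selected genes. Beside Tagap, E430024P14Rik, the antisense gene that overlaps it, passed in both genotypes, with a log2 fold change of 0.58 in WT (edgeR adjusted p = 0.00406) and 0.72 in STINGgt/gt (edgeR adjusted p = 0.0358). It had 43 to 46 reads with DMSO and 62 to 75 with CMA in WT, and 40 to 43 and 74 to 81 in STINGgt/gt, against at least 3349 on Tagap. The strand setting of the counting is not given in the sources used here, so reads of the 2 genes may not be fully told apart. Rsph3a, a radial spoke gene 10.7 kb beyond Tagap, rose in WT cells from 7.96 ± 1.19 to 16.1 ± 1.00 CPM (SD, n = 3; log2 change 1.03) and had a log2 fold change of 0.20 in STINGgt/gt (edgeR adjusted p = 0.481).

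Rprd1b, whose exons overlap those of Tgm2, had a log2 fold change of -0.06 in WT (edgeR adjusted p = 0.180) and 0.02 in STINGgt/gt (edgeR adjusted p = 0.862), at 55.5 to 59.4 CPM on average in the 4 groups. The decrease of Tgm2 was therefore not seen in Rprd1b. Gm20412, which also overlaps Tgm2, had at most 3 reads in a library and was not tested. Blnk, a B cell adaptor gene 34.7 kb from Dntt, fell in WT cells by 0.28 on the log2 scale and was at 36.4 ± 2.56 CPM in WT against 10.2 ± 0.382 CPM in STINGgt/gt with DMSO (SD, n = 3). Of the 12 neighbours, 9 passed in WT (5 higher, 4 lower, at most 1.03 in size on the log2 scale) and 1 passed in STINGgt/gt, the antisense gene of Tagap. Over all genes tested in WT, 33% passed upward and 37.4% downward, so the WT count is near the background. In STINGgt/gt these shares were 0.398% and 0.92%.

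**Figure D5:**
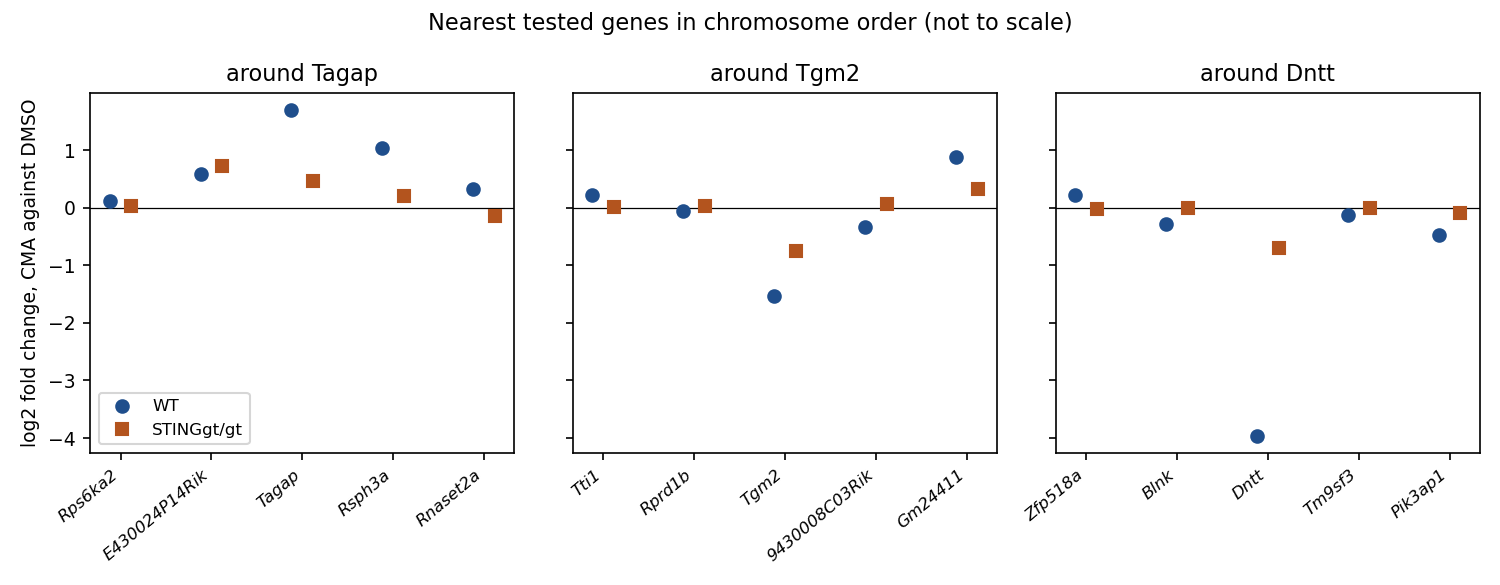
Log2 fold change of CMA against DMSO for each selected gene (middle) and the 2 nearest tested genes on each side in chromosome order, not to scale; circles are WT and squares STINGgt/gt. None of the neighbours reaches the WT change of the gene it flanks, and E430024P14Rik (0.58 and 0.72) is the 1 neighbour that passed in STINGgt/gt.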

How the data were processed

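RNA was measured in 12 libraries (stranded mRNA kit). Per the submitters' processing notes, cutadapt 1.3, STAR 2.4.0f1, HTSeq 0.6.1 and RSEM 1.2.16 were used with GRCm38. The authors deposited raw read counts per Ensembl gene and a log2 expression table of 11921 genes, found to be log2(count + 0.5) shifted by a constant in each library and used only as an alternative. Tally lines naming no gene (no feature 4.86% to 7.16%, ambiguous 0.594% to 0.635%, not unique 27.8% to 30.3% of entries) entered neither library sizes nor tests.

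Counts were filtered with filterByExpr, TMM-scaled and fitted as 4 groups with edgeR 4.0.16 (glmQLFit, glmQLFTest, R 4.3.3), with Benjamini-Hochberg adjustment over 13811 genes. The genes and lists were chosen with earlier results of these data known. A further list is not reported here. Genes named are the 3 selected, the 3 most correlated with each (log2 CPM, prior count 2), 2 tested neighbours on each side (GENCODE M21 positions) and at most 4 genes per list (the 2 highest and 2 lowest past the threshold in WT). List genes that passed in STINGgt/gt and the copy Tagap1 were named after their values were seen. Rag1, Rag2, Gm20412 and the marker genes named singly also fall outside these rules. The deposited table named 11921 of the IDs, and a gene name reference a further 25762. Promoters are from RefSeq (GRCm38.p6).

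On simulated counts for WT (13811 genes, 200 changed), edgeR recovered 107 of 108 genes changed by 1 on the log2 scale and 92 of 92 changed by 2, with 6 false calls. The simulation changed only genes with enough reads and gave all genes the same spread between replicates. In the real WT data 33% of genes passed upward and 37.4% downward. The simulation therefore checks that the fit runs correctly and gives no error rate for the real calls. Alternatives were library-size scaling, DESeq2 1.42.0, limma-voom and limma 3.58.1 on the deposited table, a filter of 10 counts in every library or none, fits of 2 groups, replicate blocks and leaving out each library. Replicates all differed by more than sampling noise (chi-square per degree of freedom 2.63 to 29.9).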

Additional observations from a re-analysis of the deposited data

Results flagged for a closer look

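By edgeR's test of the interaction, WT and STINGgt/gt T cells differed in their response to CMA at 8123 of 13811 genes (58.8%), at 62 of the 101 tested genes of the 8 lists (61.4%) and at 6 of the 12 neighbours, so that a difference by itself is common; no such test is read for the selected genes, whose choice used the STINGgt/gt libraries. Given here are these 6 neighbours and the 5 list genes that passed in STINGgt/gt, a contrast that the difference contains. As that contrast picked the list genes, their p-values for the difference are a description and not a test. Of these list genes, Egr2, the early growth response factor, had opposite signs in the 2 genotypes, with an effect in WT minus that in STINGgt/gt of -2.62 on the log2 scale (adjusted p = 9.72e-13, edgeR). Sdc4, the proteoglycan, also had opposite signs, with a difference of 1.43 (adjusted p = 1.67e-11, edgeR). Tgm1 (-1.97, adjusted p = 3.41e-09, edgeR) and the RhoGAP gene Srgap3 (-1.46, adjusted p = 4.73e-09, edgeR) were lower with CMA in both genotypes and more so in WT. For the fifth, Nr4a1, the difference was 0.02 (adjusted p = 0.785, edgeR).

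Among the neighbours, the difference was 0.83 for Rsph3a (adjusted p = 0.000254, edgeR) and 0.47 for Rnaset2a (adjusted p = 0.0462, edgeR) beside Tagap. It was 0.21 for Tti1 (adjusted p = 0.00430, edgeR) and -0.40 for 9430008C03Rik (adjusted p = 0.0104, edgeR) beside Tgm2. Beside Dntt it was -0.28 for Blnk (adjusted p = 0.0150, edgeR) and -0.39 for Pik3ap1 (adjusted p = 0.000314, edgeR). Of these 6 genes none passed in STINGgt/gt by edgeR, DESeq2 or limma-voom, and 0 had an unadjusted p under 0.05 there. Few genes passed there at all by edgeR (0.398% upward and 0.92% downward).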

How the results depend on the processing

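In WT the CMA effects of the 3 genes kept their direction and their side of the threshold under all 21 alternatives (adjusted p at most 8.11e-08, edgeR on the WT libraries alone). The direction was also kept in STINGgt/gt, but those libraries chose the genes, so nothing is read from it. Leaving out a library of the other genotype hardly moves an effect, so not all alternatives are a check. Tagap ran from 1.68 to 1.74 in WT and from 0.45 to 0.48 in STINGgt/gt, Tgm2 from -1.59 to -1.46 and from -0.82 to -0.69, and Dntt from -4.06 to -3.91 and from -0.81 to -0.65. The difference between the genotypes for Tagap, 1.23, was 1.28 with limma on the deposited log2 table and 1.27 with at least 10 counts in every library, a move beyond the replicate spread of 0.0339; the cause was not tested. Leaving out 1 library gave 1.22 to 1.27 for it, -0.84 to -0.71 for Tgm2 and -3.36 to -3.18 for Dntt. Of the list counts, T cell activation genes lower in WT fell from 5 to 3 with DESeq2, and the 1 retinoid gene higher in WT became 0 with library-size scaling and 2 with DESeq2.

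Replicate numbers were not taken as a pairing in the main fit, although part of the data went with one. In STINGgt/gt each DMSO library correlated best with the CMA library of its number (0.0585 to 0.0634, against at most 0.00346 for other numbers). Same-numbered WT libraries correlated by 0.00195 to 0.132, and WT DMSO library 1 correlated better with CMA library 2 (0.0560) than with its own number. Library names of the same number share a first digit, except for STINGgt/gt replicate 2, so a pairing remains possible. With a block by replicate number the WT effects were 1.70 for Tagap, -1.53 for Tgm2 and -3.97 for Dntt, and those in STINGgt/gt 0.47, -0.74 and -0.71. A block by library name gave the same WT effects to these digits, and 0.45, -0.76 and -0.81 in STINGgt/gt. The last is the lowest value of all alternatives for Dntt in STINGgt/gt. Depth limits Dntt in WT with CMA most, at 49 to 68 reads per library.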
